A study of Mus musculus with 6 samples.

Results

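The NR4A and EGR factors are 6 transcription factor genes, Nr4a1, Nr4a2, Nr4a3, Egr1, Egr2 and Egr3, found by symbol among the 55450 genes of the count table. All 6 passed the filter on low counts that left 13171 genes for testing. They were followed in lymphocytes sorted from mammary glands in pregnancy (E18.5), with 3 bulk RNA libraries of DN NK1.1+ cells set against 3 of CD8 beta+ T cells. DN stands for double negative. The labels do not say which pair of markers these cells lack, and they call them lymphocytes in one field and T cells in another. Strain, age, genotype and the number of mice behind a library are not given in the labels, and no treatment is named for either group. The study asked whether unconventional lymphocytes within the mammary epithelium regulate how luminal and basal cells differentiate.

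NR4A proteins are orphan nuclear receptors that work without a known obligate ligand, and EGR proteins are zinc finger factors. Both families are immediate-early genes: their transcription starts within a short time of a stimulus and needs no new protein. In T cells, engagement of the antigen receptor induces both through calcium and MAP kinase signalling. Nr4a1 is widely used as a reporter of that signal. Nr4a1, Nr4a2 and Nr4a3 together are known to restrain effector T cells and to take part in regulatory T cell development. Egr2 and Egr3 are known to limit T cell activation, and Egr1 to act in thymocyte selection.

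Klrb1c and Cd8b1, the genes of the markers that name the groups, followed the labels, and Cd8a was detected in both groups. Klrb1c, which encodes NK1.1, averaged 638 ± 20.8 CPM (counts scaled to library size with TMM factors) in DN NK1.1+ libraries and 37.1 ± 5.67 CPM in CD8 beta+ libraries. Cd8b1, for the CD8 beta chain, averaged 2.56 ± 1.58 CPM in DN NK1.1+ and 947 ± 57.7 CPM in CD8 beta+ libraries (SD, n = 3 each here and below). Cd8a, for the CD8 alpha chain, was at 162 ± 11.6 CPM in DN NK1.1+ and 909 ± 85.6 CPM in CD8 beta+ libraries, and Cd4 at 1.36 ± 0.764 CPM in DN NK1.1+ and 2.15 ± 2.54 CPM in CD8 beta+ libraries. Total counts ran from 7961360 to 14367299 per library, so that 1 count was worth between 0.0721 and 0.13 CPM. Cd3e, a chain of the T cell receptor complex, was at 521 ± 7.44 CPM in DN NK1.1+ and 763 ± 19.4 CPM in CD8 beta+ libraries, and Ncr1, for the NK receptor NKp46, at 273 ± 20.5 CPM in DN NK1.1+ and 0.484 ± 0.182 CPM in CD8 beta+ libraries. The libraries are bulk samples, so fewer cells of a type and less RNA per cell cannot be told apart. Replicate 3 of each group stood apart in markers of basal epithelium, whose sums over 8 genes were 205 CPM in DN NK1.1+ replicate 3 and 154 CPM in CD8 beta+ replicate 3, against 10.9 to 24.2 CPM in the other 4 libraries. Member results without these 2 libraries are given beside each family.

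All 3 NR4A genes were higher in DN NK1.1+ cells, by 1.59-fold to 1.85-fold, and none of the 3 EGR genes passed the test. In the comparison of all 13171 genes, 7.84% were called higher and 5.99% lower at an adjusted p under 0.05, or 13.8% in either direction. For single genes, the adjusted p comes from edgeR (quasi-likelihood F test, Benjamini-Hochberg over all 13171). The libraries of the groups lay fully apart in 4 of the 6 members, against 30.6% of all tested genes. DN NK1.1+ libraries all lay above the CD8 beta+ libraries in the 3 NR4A genes, against 16% of all tested genes.

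**Figure D1:**
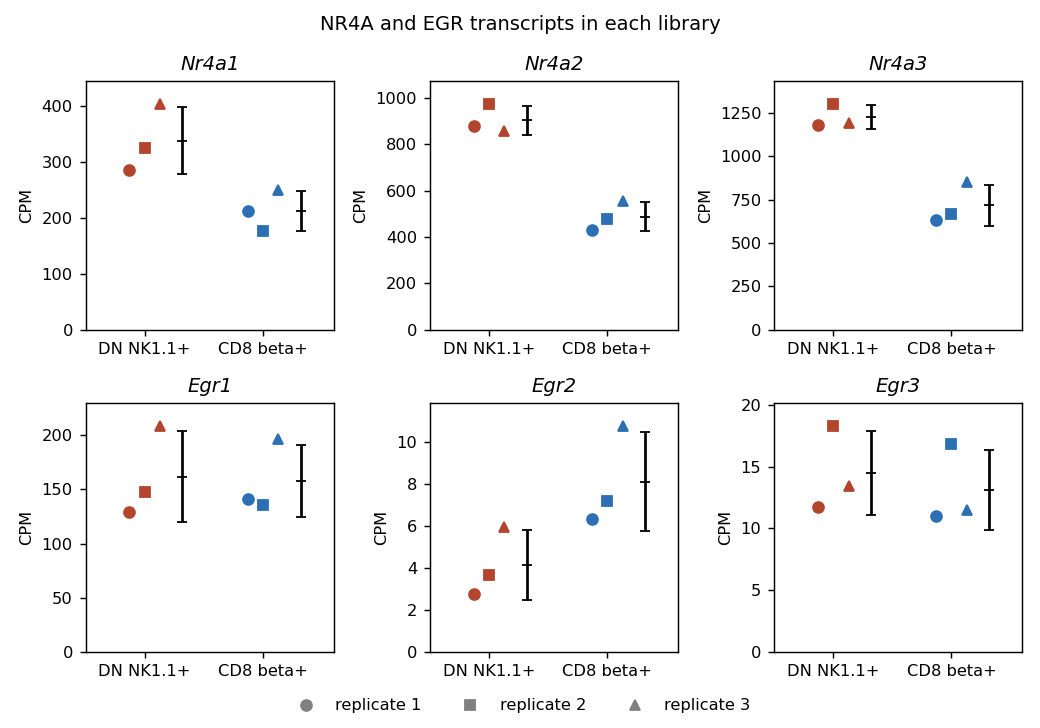
Transcript level in CPM (y axis, starting at 0) of the 6 members in each library, with DN NK1.1+ on the left and CD8 beta+ on the right of each panel. Symbols mark replicates and the bar the mean ± SD of 3 libraries; the groups are apart in Nr4a1, Nr4a2, Nr4a3 and Egr2 and overlap in Egr1 and Egr3.

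Nr4a2, also called Nurr1, showed the largest difference of the family. It had 879, 976 and 857 CPM in DN NK1.1+ replicates 1, 2 and 3 and 429, 479 and 555 CPM in CD8 beta+ replicates 1, 2 and 3. Every DN NK1.1+ library lay above every CD8 beta+ library by a wide margin, and the spread was small in both groups. The log2 fold change was 0.89 (SE 0.109, adjusted p = 3.69e-05), which is 1.85-fold. The mean was 904 ± 63 CPM in DN NK1.1+ and 488 ± 63.5 CPM in CD8 beta+ libraries. Nr4a2 is a protein-coding gene on chromosome 2 of build mm10, from 57106830 to 57124003 on the minus strand.

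Nr4a3, also called Nor1, differed by nearly as much. Its level was 1179, 1303 and 1189 CPM in DN NK1.1+ replicates 1, 2 and 3 and 632, 666 and 849 CPM in CD8 beta+ replicates 1, 2 and 3. The groups did not overlap. CD8 beta+ replicate 3 was the highest of its group here and in Nr4a2. The log2 fold change was 0.77 (SE 0.116, adjusted p = 2.58e-04), or 1.71-fold, between means of 1224 ± 68.7 CPM in DN NK1.1+ and 716 ± 117 CPM in CD8 beta+ libraries. The gene lies on chromosome 4 from 48045153 to 48086447 on the plus strand.

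Nr4a1, also called Nur77, had the smallest difference of the 3 and a wider spread. Its values were 286, 324 and 404 CPM in DN NK1.1+ replicates 1, 2 and 3 and 212, 176 and 249 CPM in CD8 beta+ replicates 1, 2 and 3. The groups did not overlap, although DN NK1.1+ replicate 1 came near CD8 beta+ replicate 3, and replicate 3 was the highest library of each group. The log2 fold change was 0.67 (SE 0.148, adjusted p = 0.01), or 1.59-fold, between means of 338 ± 60.4 CPM in DN NK1.1+ and 212 ± 36.5 CPM in CD8 beta+ libraries. Without CD8 beta+ replicate 1 the call ended (adjusted p = 0.052), with a log2 fold change of 0.67 still. Over all settings tried the adjusted p of Nr4a1 ran from 2.17e-08 to 0.052. The gene lies on chromosome 15 from 101254269 to 101274795 on the plus strand.

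Without replicate 3 of both groups, the log2 fold changes were 1.03 for Nr4a2, 0.94 for Nr4a3 and 0.66 for Nr4a1, with adjusted p-values of 3.65e-08, 4.42e-08 and 1.42e-04 from edgeR's quasi-likelihood test. This fit compares 2 libraries with 2 and was added after seeing the data, so its smaller p-values are not stronger evidence. The part of the basal marker sums in the NR4A differences was not tested. Summed over the family, NR4A transcripts came to 2343, 2603 and 2451 CPM in DN NK1.1+ libraries and 1273, 1321 and 1653 CPM in CD8 beta+ libraries. The ratio of the geometric means was 1.75. No annotated gene overlaps any of the 6 members on either strand, so that counting without regard to strand adds no antisense gene to them.

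Levels of different genes were compared per kilobase of annotated exon, which is the union over all transcripts of a gene. On this scale Nr4a2 and Nr4a3 stood side by side, at 223 ± 15.5 and 204 ± 11.5 CPM per kilobase in DN NK1.1+ libraries and 120.2 ± 15.6 and 119.5 ± 19.5 in CD8 beta+ libraries. Their ranges overlapped in both groups. Within each DN NK1.1+ library Nr4a2 was the higher, at 217, 240.4 and 211 against 197, 218 and 199 CPM per kilobase for Nr4a3. In CD8 beta+ libraries it was the higher in replicates 1 and 2 and the lower in replicate 3. Nr4a1 was lower, at 96.3 ± 17.2 CPM per kilobase in DN NK1.1+ and 60.5 ± 10.4 in CD8 beta+ libraries. Among 13171 genes ranked by mean level per kilobase, Nr4a2 was at rank 184, Nr4a3 at 197 and Nr4a1 at 390 in DN NK1.1+ libraries. In CD8 beta+ libraries their ranks were 327, 329 and 625. On this scale these factors were thus among the abundant transcripts in the libraries of both groups.

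The make-up of the family was similar in the 2 groups. Nr4a2 gave 42.6 ± 2.02% of NR4A transcripts per kilobase in DN NK1.1+ and 40.1 ± 1.87% in CD8 beta+ libraries. Nr4a3 gave 39.1 ± 1.06% in DN NK1.1+ and 39.7 ± 0.873% in CD8 beta+ libraries, and Nr4a1 18.4 ± 3.07% in DN NK1.1+ and 20.2 ± 2.17% in CD8 beta+ libraries. The count ratio of Nr4a2 to Nr4a3 was 0.746, 0.749 and 0.721 in DN NK1.1+ libraries and 0.679, 0.72 and 0.654 in CD8 beta+ libraries. The ranges do not overlap but nearly touch, with a difference of 0.11 on the log2 scale (exact two-sided permutation test, p = 0.1, the smallest that 3 against 3 libraries allow, and 0.3 after Benjamini-Hochberg adjustment over the 6 ratios tested). The ratios of Nr4a1 to Nr4a2 and to Nr4a3 differed by −0.23 and −0.11 on the log2 scale, with overlapping libraries (exact permutation p = 0.3 and 0.6, adjusted 0.45 and 0.7).

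The 3 NR4A genes each hold 4 copies of 1 short motif in a window before a RefSeq start. The motif was chosen after the fold changes had been seen, and its part in the NR4A differences was not tested. RefSeq windows on build GRCm38.p6 were matched for 4 of the 6 members, Nr4a1, Nr4a2, Nr4a3 and Egr2. Egr1 and Egr3 had no window, so the EGR family is represented by Egr2 alone. The motif is the half-site of the cyclic AMP response element (CRE), TGACG or its reverse complement CGTCA, which is bound by CREB, CREM and ATF factors. The window is the 250 bases before a RefSeq start. The sequences are shown so that the half-sites, in capitals, can be read in place, each 5′ to 3′ on the gene's own strand. The windows are chr15:101266596-101266845 on the plus strand for Nr4a1, chr2:57124004-57124253 on the minus strand for Nr4a2 and chr4:48045055-48045172 on the plus strand for Nr4a3. The Nr4a1 window lies inside the annotated gene, outside its exons, before an internal start. The Nr4a3 window is cut short because annotated exon begins inside it, of which 20 bases are shown.
Nr4a1: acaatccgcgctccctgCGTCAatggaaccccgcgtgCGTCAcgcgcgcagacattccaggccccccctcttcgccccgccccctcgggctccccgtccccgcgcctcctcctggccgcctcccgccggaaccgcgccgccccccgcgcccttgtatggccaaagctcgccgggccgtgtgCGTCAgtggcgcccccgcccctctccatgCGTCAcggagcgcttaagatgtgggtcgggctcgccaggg
Nr4a2: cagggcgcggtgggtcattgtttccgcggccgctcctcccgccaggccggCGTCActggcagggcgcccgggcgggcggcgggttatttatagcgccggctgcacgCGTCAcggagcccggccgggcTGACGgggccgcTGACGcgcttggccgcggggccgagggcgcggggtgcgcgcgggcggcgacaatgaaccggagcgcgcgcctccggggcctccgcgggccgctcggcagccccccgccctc
Nr4a3: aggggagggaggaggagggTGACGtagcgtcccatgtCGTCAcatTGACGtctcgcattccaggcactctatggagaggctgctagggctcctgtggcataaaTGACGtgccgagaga

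Each NR4A window of 250 bases held 4 CRE half-sites. Of 32851 such windows over all genes, 17.8% held at least 1 half-site, 3.9% at least 2, 0.688% at least 3 and 0.137%, or 45 windows, at least 4. These shares were not matched for G and C content. In Nr4a1 the half-sites begin 233, 213, 69 and 40 bases before the start, all as CGTCA. In Nr4a2 they begin 200, 144, 123 and 111 bases before it, and in Nr4a3 231, 213, 205 and 147 bases before it. The fourth Nr4a3 half-site is exonic, at chr4:48045158-48045162, after the gene start annotated at 48045153, and the other 3 lie before that start. The windows are rich in G and C (74.4% in Nr4a1, 80% in Nr4a2 and 63.6% in Nr4a3), and the motif itself holds a CG step. The full CRE, TGACGTCA, which overlaps 2 half-sites, was in none of the 3 and in 1.55% of all windows. A match of letters is a description and does not show that a factor was bound.

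Egr2 has several RefSeq starts. The window before one of them, chr10:67537619-67537868 on the plus strand, lies inside the annotated gene and outside its exons. It is shown because it holds 2 CRE half-sites, in capitals, and between them a CArG box, the element bound by serum response factor.
Egr2: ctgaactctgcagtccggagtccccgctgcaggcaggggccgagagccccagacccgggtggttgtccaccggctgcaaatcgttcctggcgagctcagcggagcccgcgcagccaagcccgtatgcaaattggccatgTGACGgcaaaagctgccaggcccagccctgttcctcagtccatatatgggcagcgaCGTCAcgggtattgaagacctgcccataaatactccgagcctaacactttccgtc

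The half-sites begin 111 and 55 bases before this start and the CArG box 72 bases before it. A CArG box was in 1.47% of all windows and in none of the 3 NR4A windows. Of the 5 Egr2 windows, 2 held no CRE half-site. The site of the EGR proteins themselves, GCGNGGGCG or its reverse complement, was found once in the Nr4a1 window and once in the Nr4a2 window, and in 4.7% of all windows. The NR4A site AAAGGTCA, called NBRE, was in none of the windows of these 4 genes and in 1.34% of all windows. Both strands were searched for each motif.

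**Figure D2:**
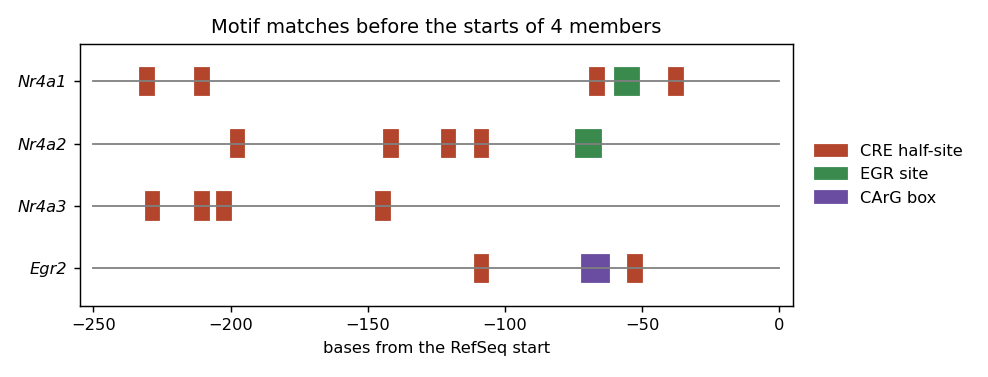
Positions of motif matches (coloured blocks) in the 250 bases before a RefSeq start, with the distance from the start in bases on the x axis and 1 row per gene. Nr4a1, Nr4a2 and Nr4a3 each hold 4 CRE half-sites, while the Egr2 window shown holds 2 and a CArG box.

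Egr1, the most abundant EGR transcript, was level between the groups. It had 129, 147 and 209 CPM in DN NK1.1+ replicates 1, 2 and 3 and 141, 136 and 196 CPM in CD8 beta+ replicates 1, 2 and 3. The ranges overlap almost fully, and replicate 3 was the highest in each group. The log2 fold change was 0.04 (SE 0.213, adjusted p = 0.945), between means of 162 ± 41.6 CPM in DN NK1.1+ and 158 ± 33.5 CPM in CD8 beta+ libraries. The 95% interval from limma-voom ran from −0.34 to 0.41 on the log2 scale, so a difference of the size seen in Nr4a2 lies outside it. The direction turned without CD8 beta+ replicate 1, CD8 beta+ replicate 2 or DN NK1.1+ replicate 3, over a range of −0.19 to 0.22. Egr1 lies on chromosome 18 from 34859823 to 34864984.

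Egr3 was likewise not separated by group. Its values were 11.7, 18.3 and 13.5 CPM in DN NK1.1+ replicates 1, 2 and 3 and 11, 16.8 and 11.5 CPM in CD8 beta+ replicates 1, 2 and 3. Replicate 2 was the highest of each group. The log2 fold change was 0.14 (SE 0.25, adjusted p = 0.805; limma-voom 95% interval −0.45 to 0.63), and it turned to −0.07 without DN NK1.1+ replicate 2. Each library held 85 to 233 counts of it. Egr3 lies on chromosome 14 from 70077203 to 70082614.

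Egr2 was the 1 member with lower values in DN NK1.1+ libraries, and it did not pass the test. It had 32, 44 and 79 counts in DN NK1.1+ replicates 1, 2 and 3 and 49, 100 and 105 counts in CD8 beta+ replicates 1, 2 and 3. Scaled to depth these are 2.75, 3.68 and 5.98 CPM in DN NK1.1+ and 6.36, 7.21 and 10.8 CPM in CD8 beta+ libraries. The groups were apart, but DN NK1.1+ replicate 3 and CD8 beta+ replicate 1 nearly met. The log2 fold change was −0.97 (SE 0.384, adjusted p = 0.122), between means of 4.14 ± 1.66 CPM in DN NK1.1+ and 8.12 ± 2.35 CPM in CD8 beta+ libraries. The limma-voom 95% interval, unadjusted for the number of genes, ran from −1.79 to −0.17. The adjusted p stayed over the threshold in all 17 settings, at 0.0512 to 0.333. Egr2 lies on chromosome 10 from 67535475 to 67542188.

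Within the EGR family the ratio of Egr1 to Egr2 did not overlap between the groups, a separation too small in libraries for the exact test to call. Egr2, with 32 to 105 counts a library, was itself not called. The ratio of Egr1 to Egr2 counts was 46.3, 39.6 and 34.7 in DN NK1.1+ libraries and 22, 18.8 and 18.1 in CD8 beta+ libraries. This is 2.04 times higher in DN NK1.1+ cells, with no overlap (exact two-sided permutation p = 0.1, the smallest possible, adjusted 0.3). The ratio of Egr2 to Egr3 overlapped between the groups (exact permutation p = 0.2, adjusted 0.4), as did that of Egr1 to Egr3 (p = 0.7, adjusted 0.7). Per kilobase, Egr1 gave 88.7 ± 2.24% of EGR transcripts in DN NK1.1+ and 86.6 ± 2.56% in CD8 beta+ libraries, and Egr2 2.93 ± 0.464% in DN NK1.1+ and 5.83 ± 0.591% in CD8 beta+ libraries.

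Egr1 was at 36.1 ± 9.29 CPM per kilobase in DN NK1.1+ and 35.2 ± 7.46 in CD8 beta+ libraries, below all 3 NR4A genes. Egr3 was at 3.29 ± 0.777 CPM per kilobase in DN NK1.1+ and 2.98 ± 0.727 in CD8 beta+ libraries. Egr2 was at 1.22 ± 0.489 CPM per kilobase in DN NK1.1+ and 2.39 ± 0.692 in CD8 beta+ libraries. The order over both families was thus Nr4a2 and Nr4a3, then Nr4a1, Egr1 and the low pair of Egr3 and Egr2. Egr3 and Egr2 overlap within CD8 beta+ libraries. The fourth paralog, Egr4, which is not a member, had 0 counts in DN NK1.1+ libraries and 2 in CD8 beta+ libraries and was not tested.

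Replicate 3 was the highest library of its group for Nr4a1, Egr1 and Egr2 in both groups. Without replicate 3 of both groups the log2 fold changes were 0.0020 for Egr1, −1.07 for Egr2 and 0.10 for Egr3 (adjusted p = 0.992, 0.133 and 0.882 from edgeR). The part of the basal marker sums in the levels of replicate 3 was not tested. The ratio of Nr4a1 to Egr1 counts, a pair chosen after their values were seen, was 2.21, 2.2 and 1.94 in DN NK1.1+ libraries and 1.51, 1.29 and 1.27 in CD8 beta+ libraries. These ratios did not overlap, although both genes peaked in the same replicates.

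Markers of other cells moved with the groups in part. Sums over 12 myeloid markers were 463, 378 and 429 CPM in DN NK1.1+ libraries and 181, 211 and 280 CPM in CD8 beta+ libraries. The one with the highest mean CPM, Itgax, was at 268 ± 11 CPM in DN NK1.1+ and 113 ± 15 CPM in CD8 beta+ libraries and is also found on lymphocytes. Of the 10 myeloid markers tested, 2 were called higher, Itgax and Csf1r, while S100a8 and S100a9 fell below the filter. Luminal markers summed to 274, 762 and 1593 CPM in DN NK1.1+ and 786, 495 and 653 CPM in CD8 beta+ libraries, led by the milk protein gene Csn2, which overlapped between the groups. Of 9 luminal markers tested, 1 was called higher, the adhesion molecule gene Epcam, at 31.9 ± 1.04 CPM in DN NK1.1+ and 6.04 ± 1.79 CPM in CD8 beta+ libraries (log2 fold change 2.40, adjusted p = 4.04e-06). The groups were apart in Epcam, while the other 8 luminal markers tested were not called. Epcam had 30.7, 32.7 and 32.2 CPM in DN NK1.1+ replicates 1, 2 and 3. In the same libraries Csn2 had 139, 397 and 912 CPM. Krt8, named after its values were seen, had 1.46, 2.17 and 8.7 CPM there, so that Epcam did not follow these 2 markers. Stromal and vessel markers, led by Pecam1, came to 94.3, 48.6 and 181 CPM in DN NK1.1+ libraries, against 55.8, 44.8 and 118 CPM in CD8 beta+ libraries. Of 8 tested, 7 were not called and Pecam1 was called higher. It was at 58.8 ± 9.49 CPM in DN NK1.1+ and 31.7 ± 8.03 CPM in CD8 beta+ libraries, with the groups apart (log2 fold change 0.89, adjusted p = 0.00566). In DN NK1.1+ replicate 2, Pecam1 had 47.8 CPM while 6 of the 9 listed stromal and vessel markers had 0 counts. Markers at 0 numbered 1 and 0 in DN NK1.1+ replicates 1 and 3, and 3, 2 and 0 in CD8 beta+ replicates 1, 2 and 3. For B cell markers the sums were 306, 312 and 258 CPM in DN NK1.1+ and 266, 263 and 175 CPM in CD8 beta+ libraries. These sums are carried by Ighm, which was called higher (log2 fold change 0.55, adjusted p = 0.00604), whereas the other 6 B cell markers had log2 fold changes below 0 and 1 of them, Cd79b, was called lower (−1.32, adjusted p = 0.018). T cell markers, led by Cd3g, summed to 2247 to 2368 CPM in DN NK1.1+ and 4518 to 4751 CPM in CD8 beta+ libraries. Of 12 tested, 11 were called lower and Cd3g was not called, beside 5.99% of all tested genes called lower. Themis, named after its values were seen, differed most, at 9.21 ± 5 CPM in DN NK1.1+ and 386 ± 4.49 CPM in CD8 beta+ libraries. Markers of NK and innate lymphoid cells, led by Fcer1g, summed to 3023 to 3290 CPM in DN NK1.1+ and 749 to 955 CPM in CD8 beta+ libraries. Of 11 tested, 8 were called higher and 3 were not called, beside 7.84% of all tested genes called higher. The 3 were Eomes, Tbx21 and Il7r, with log2 fold changes of 0.14, 0.52 and −1.73. Il7r, named after its values were seen, was at 94.5 ± 20.8 CPM in DN NK1.1+ and 314 ± 172 CPM in CD8 beta+ libraries (edgeR adjusted p = 0.174). None of the markers in these lists was at 0 in all 6 libraries. The part of these markers in the NR4A difference was not tested.

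Of 34 other immediate-early genes, all tested, 16 were called higher in DN NK1.1+ cells, 1 was called lower and 17 were not called, with a median log2 fold change of 0.42, beside −0.0033 over all tested genes, of which 7.84% were called higher. Maff, a small MAF factor, was at 30.6 ± 1 CPM in DN NK1.1+ and 8.9 ± 0.584 CPM in CD8 beta+ libraries (log2 fold change 1.78, adjusted p = 8.89e-06). Atf3, a CRE-binding factor, was at 18.3 ± 4.21 CPM in DN NK1.1+ and 5.53 ± 2.56 CPM in CD8 beta+ libraries (log2 fold change 1.72, adjusted p = 0.00177), and the zinc finger factor gene Klf4 at 38.1 ± 2.71 CPM in DN NK1.1+ and 12.9 ± 0.655 CPM in CD8 beta+ libraries (log2 fold change 1.56, adjusted p = 1.19e-05). The 1 gene called lower was Klf2, a factor of quiescent lymphocytes, at 55.9 ± 8.55 CPM in DN NK1.1+ and 96.2 ± 19.1 CPM in CD8 beta+ libraries. Btg1, with the highest mean CPM of its list over the 6 libraries, was at 868 ± 84.1 CPM in DN NK1.1+ and 1024 ± 82.6 CPM in CD8 beta+ libraries (adjusted p = 0.164). The count of 16 depended on single libraries. It was 7 without CD8 beta+ replicate 1, where 4.91% of all genes were called higher, and 10 without DN NK1.1+ replicate 2, where 5.36% were. It was 13 without replicate 3 of both groups, where 9.12% of all genes were called higher.

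Of 7 FOS and JUN genes in the list, whose products pair into the AP-1 factor, 4 were called higher and 3 were not called. Among all tested genes 7.84% were called higher. This grouping was made after the values were seen. Fosl2 had 1205, 1297 and 1337 CPM in DN NK1.1+ libraries and 498, 551 and 610 CPM in CD8 beta+ libraries (log2 fold change 1.21, adjusted p = 8.98e-07). Fos had 190, 228 and 211 CPM in DN NK1.1+ libraries and 83.7, 89.3 and 131 CPM in CD8 beta+ libraries (log2 fold change 1.05, adjusted p = 7.57e-04). Jun and Jund were also called higher (log2 fold changes 0.66 and 0.46, adjusted p = 0.0141 and 0.0243). Fosl1 had under 4 CPM in every library and was not called (adjusted p = 0.867). Fosb and Junb overlapped between the groups, at 197 ± 41.9 CPM in DN NK1.1+ and 128 ± 28.3 CPM in CD8 beta+ libraries and at 370.4 ± 88.5 CPM in DN NK1.1+ and 271 ± 44.8 CPM in CD8 beta+ libraries (adjusted p = 0.0975 and 0.163). Egr1 thus stood with the genes that were not called, and Nr4a1, Nr4a2 and Nr4a3 with those that were.

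**Figure D3:**
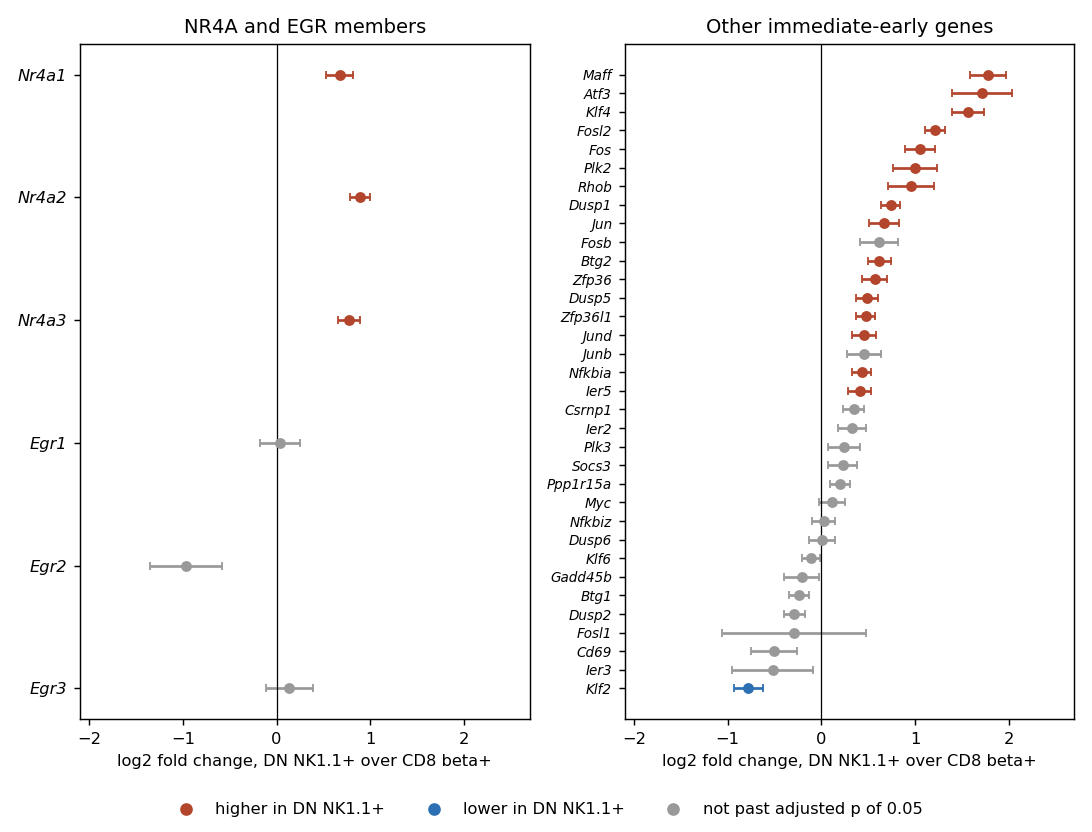
Log2 fold change of DN NK1.1+ over CD8 beta+ (x axis) with its standard error as bars, for the 6 members on the left and 34 other immediate-early genes on the right, the others ordered by value. Colours mark calls at an adjusted p under 0.05: 3 NR4A genes and 16 others were higher, and Klf2 was lower.

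Genes of the signalling routes that lead to the NR4A and EGR genes changed in both directions. Of 28 tested, 5 were higher and 6 lower, with a median log2 fold change of −0.06, beside 7.84% higher and 5.99% lower among all tested genes. The 5 higher genes were Crem, Mapk3, Mef2c, Mef2a and Elk3. Without any one of CD8 beta+ replicates 2 and 3 or DN NK1.1+ replicates 1 and 2, 3 were lower, as with scaling by library size only, where 5 were higher. Crem, which encodes the CRE modulator, had 242, 270 and 233 CPM in DN NK1.1+ libraries and 93, 119 and 118 CPM in CD8 beta+ libraries (log2 fold change 1.18, adjusted p = 2.92e-06). Mapk3, for the MAP kinase ERK1, was at 87 ± 10.4 CPM in DN NK1.1+ and 51.2 ± 11.7 CPM in CD8 beta+ libraries (log2 fold change 0.77, adjusted p = 0.00306). Mef2c, for a member of the factor family that in T cells controls Nr4a1, had 18.6 ± 1.71 CPM in DN NK1.1+ and 8.51 ± 4.87 CPM in CD8 beta+ libraries (adjusted p = 0.0379), but its call ended without any one library other than CD8 beta+ replicate 2, without which its log2 fold change was 1.7. The more abundant Mef2a and Mef2d of that family, given after their values were seen, went opposite ways. Mef2a was at 378 ± 14.2 CPM in DN NK1.1+ and 237 ± 11.6 CPM in CD8 beta+ libraries (log2 fold change 0.68, adjusted p = 8.08e-05). Mef2d was at 153 ± 19.5 CPM in DN NK1.1+ and 197 ± 5.8 CPM in CD8 beta+ libraries (log2 fold change −0.37, adjusted p = 0.0276).

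The 6 lower genes were Camk4, Hdac7, Nfatc2, Nfatc3, Mef2d and Cabin1. Of 11 genes of the list that act in calcium signalling, a grouping made after the values were seen, 4 were lower and 7 were not called. The grouping did not separate activators from inhibitors of the route, so this count gives no direction for its activity. Among all tested genes 5.99% were called lower. The 7 were Nfatc1, Ppp3ca, Ppp3cb, Ppp3r1, Orai1, Stim1 and Rcan1, with log2 fold changes of −0.15 to 0.62. Camk4, for a calcium- and calmodulin-dependent kinase, was at 11.4 ± 1.31 CPM in DN NK1.1+ and 33.3 ± 4.15 CPM in CD8 beta+ libraries (log2 fold change −1.55, adjusted p = 3.81e-05). Hdac7, a deacetylase that represses Nr4a1 in thymocytes, was at 46.6 ± 9.48 CPM in DN NK1.1+ and 115 ± 5.28 CPM in CD8 beta+ libraries (log2 fold change −1.30, adjusted p = 9.04e-06). The calcium-driven factor gene Nfatc2 was at 153 ± 7.2 CPM in DN NK1.1+ and 230.2 ± 4.26 CPM in CD8 beta+ libraries (log2 fold change −0.59, adjusted p = 3.00e-04). Nfatc3, with the highest mean CPM of its list over the 6 libraries, was at 494 ± 14.9 CPM in DN NK1.1+ and 620 ± 52.6 CPM in CD8 beta+ libraries (adjusted p = 0.0305), a call that ended with scaling by library size only and without any one of CD8 beta+ replicates 2 and 3 and DN NK1.1+ replicates 1 and 2. Srf, for serum response factor, was at 27.6 ± 9.01 CPM in DN NK1.1+ and 31.8 ± 4.15 CPM in CD8 beta+ libraries (adjusted p = 0.637), and Creb1, for CREB, at 136 ± 15.5 CPM in DN NK1.1+ and 148 ± 5.25 CPM in CD8 beta+ libraries (adjusted p = 0.543); both were named after their values were seen.

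Of 7 tested cofactor genes, 1 was higher and 0 lower, with a median log2 fold change of 0.03 (at an unadjusted p under 0.05, 2 were higher and 0 lower; DESeq2 and limma-voom each called 1 higher and 0 lower). With 7.84% of all tested genes called higher, 1 of 7 is near the background. The gene was Nab2, which encodes a corepressor that binds EGR proteins and is itself an EGR target. Nab2 had 19.8, 15.6 and 24.8 CPM in DN NK1.1+ libraries and 12.7, 10.9 and 9.56 CPM in CD8 beta+ libraries (log2 fold change 0.86, adjusted p = 0.0201). The groups were apart, but the call ended without any one of CD8 beta+ replicates 2 and 3 and DN NK1.1+ replicates 1 and 3, and without replicate 3 of both groups (adjusted p = 0.156). Its paralog Nab1 was at 153 ± 6.56 CPM in DN NK1.1+ and 149 ± 6.23 CPM in CD8 beta+ libraries (adjusted p = 0.893).

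Genes that other work ties to EGR2 and EGR3 in T cells moved both ways. Of 18 tested, 6 were higher and 3 lower (median log2 fold change 0.28), beside shares of 7.84% and 5.99% over all tested genes. Beyond those described next, Itch, Cdkn1a and Bhlhe40 were called higher; Bhlhe40 was at 434 ± 34.4 CPM in DN NK1.1+ and 264 ± 59.6 CPM in CD8 beta+ libraries (adjusted p = 0.00347). Tnfrsf9, for the costimulatory receptor 4-1BB, had 126, 134 and 126 CPM in DN NK1.1+ libraries and 16.3, 14.9 and 21.3 CPM in CD8 beta+ libraries (log2 fold change 2.88, adjusted p = 1.96e-09). Nrgn, for the calmodulin-binding protein neurogranin, had 205 counts in DN NK1.1+ and 0 in CD8 beta+ libraries. Set against a floor of 3 counts for the CD8 beta+ group as a whole, it was at least 58.2-fold higher. Nrn1, for neuritin, was the third lower gene, with 1 count in DN NK1.1+ and 61 in CD8 beta+ libraries; it was named after its values were seen. Rnf128, for the anergy-linked ubiquitin ligase GRAIL, was at 10.7 ± 2.57 CPM in DN NK1.1+ and 1.98 ± 0.708 CPM in CD8 beta+ libraries (log2 fold change 2.41, adjusted p = 4.71e-04). Dgka, for a diacylglycerol kinase that damps receptor signals, was at 102 ± 14.5 CPM in DN NK1.1+ and 232 ± 39.6 CPM in CD8 beta+ libraries, and Crtam, for a surface adhesion receptor, at 29.7 ± 1.42 CPM in DN NK1.1+ and 64.6 ± 9.26 CPM in CD8 beta+ libraries (log2 fold changes −1.19 and −1.12, adjusted p = 5.22e-05 and 4.99e-05). Cblb, with the highest mean CPM of its list over the 6 libraries, was at 340.4 ± 14 CPM in DN NK1.1+ and 366 ± 15.8 CPM in CD8 beta+ libraries (adjusted p = 0.539).

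Genes tied to NR4A factors in exhausted and regulatory T cells also split. Of 16 tested, 4 were higher and 3 lower (median log2 fold change 0.21), where all tested genes gave 7.84% higher and 5.99% lower. The 3 lower genes were Pdcd1, for the inhibitory receptor PD-1, Irf4 and Ctla4. Pdcd1 had 0.43, 0.418 and 2.35 CPM in DN NK1.1+ libraries and 20.1, 26.3 and 35.9 CPM in CD8 beta+ libraries (log2 fold change −4.64, adjusted p = 0.00168, and −5.98 without DN NK1.1+ replicate 3). Irf4 was at 14.7 ± 2.59 CPM in DN NK1.1+ and 88.4 ± 12.4 CPM in CD8 beta+ libraries and Ctla4 at 7.26 ± 1 CPM in DN NK1.1+ and 25.2 ± 8.64 CPM in CD8 beta+ libraries (log2 fold changes −2.59 and −1.80, adjusted p = 2.80e-08 and 2.18e-04). The higher genes included Cd244, for the receptor 2B4, at 235 ± 19.4 CPM in DN NK1.1+ and 44.6 ± 8.82 CPM in CD8 beta+ libraries, and Ikzf2, for the factor Helios, at 213 ± 27.5 CPM in DN NK1.1+ and 41.7 ± 6.91 CPM in CD8 beta+ libraries (log2 fold changes 2.40 and 2.35, adjusted p = 1.04e-08 and 1.55e-08). Runx1 was at 106 ± 9.64 CPM in DN NK1.1+ and 68.3 ± 9.81 CPM in CD8 beta+ libraries (log2 fold change 0.64, adjusted p = 0.0023), and Runx3, with the highest mean CPM of its list over the 6 libraries, at 161 ± 13.7 CPM in DN NK1.1+ and 160.2 ± 9.27 CPM in CD8 beta+ libraries (adjusted p = 0.971).

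**Figure D4:**
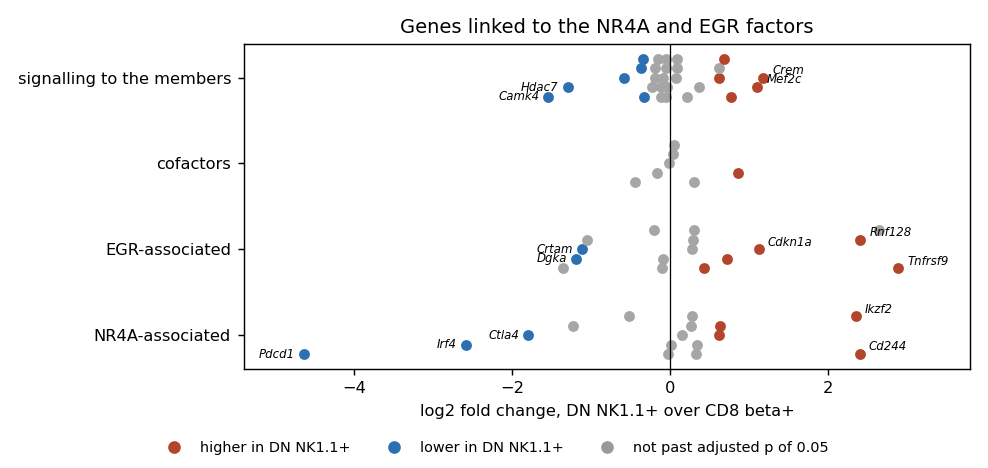
Log2 fold change of DN NK1.1+ over CD8 beta+ (x axis) for the tested genes of 4 lists linked to the NR4A and EGR factors, 1 point per gene, spread vertically for legibility only. Colours mark calls at an adjusted p under 0.05; Nrgn and Nrn1, which have 3 or fewer counts in a group, are left out, and each list but the cofactors holds both higher and lower genes.

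The genes nearest in pattern were found among 8876 tested genes with a mean of at least 5 CPM, by the root mean square difference of centred log2 CPM over the 6 libraries. For Nr4a2 they were Mmd (0.0301) and Frmd4b (0.0568), and for Nr4a3 Leprot (0.0519) and Mmd (0.0526). Mmd, nearest to both, had 57.9, 63.2 and 58.9 CPM in DN NK1.1+ libraries and 28.9, 31.9 and 38 CPM in CD8 beta+ libraries. For Nr4a1 they were Syngr2 (0.0758) and Trerf1 (0.0814). For Egr1 they were Ubald2 (0.0535) and Lgals1 (0.0547), for Egr3 Amn1 (0.0676) and Mynn (0.1), and for Egr2, with the poorest matches, Lamc1 (0.153) and Trub2 (0.154). With 6 libraries in 2 groups, near matches among so many genes are a description only.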

How the data were processed

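Bulk RNA of sorted mammary lymphocytes was measured in 6 libraries, grouped by their titles. The deposited table holds expected counts per gene, a unit inferred from the values: 7.12% to 9.89% hold decimals and the totals differ. Its headings for gene ID and symbol are swapped, and symbols were read from the second column. Build mm10 and Cell Ranger 7.1.0, a single-cell tool, are listed per the submitters' processing notes. The bulk aligner, counter, annotation and strand setting were not given in the sources used here. All 55450 IDs matched GENCODE M21, which gave coordinates and exon lengths.

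Expected counts were rounded and tested, DN NK1.1+ over CD8 beta+, with edgeR 4.0.16 in R 4.3.3 (quasi-likelihood, robust, TMM, group only; minimum count 10, minimum total 15). SEs were derived from the F statistic. Nothing states that the libraries come from different mice, so a p-value here reflects only the scatter among these samples, possibly technical. Intervals are from limma 3.58.1. Ratios within a library (pseudocount 0.5) had exact permutation tests, and family sums are given without one. A bound against 0 counts uses 3 counts over the group and covers counting error only.

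Alternatives were other scalings, DESeq2 1.42.0, limma-voom, other filters, unrounded values, the replicate number as a block, each library left out, and, added after seeing the data, replicate 3 left out of both groups. Members, gene lists and tests were chosen with earlier results of these data known, and the motifs after the fold changes had been seen. Named genes are the members, Egr4, up to 3 called genes each way per list with at least 5 CPM, the gene with the highest CPM per list, markers included, and the 2 nearest genes per member; others are said to be chosen afterwards. Columns not used numbered 0.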

Additional observations from a re-analysis of the deposited data

How the results depend on the processing

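The calls of Nr4a2 and Nr4a3 held in all 17 settings, with log2 fold changes of 0.80 to 1.03 and 0.69 to 0.94. Leaving out each library gave 0.53 to 0.79 for Nr4a1, whose call ended in 1 case, −0.19 to 0.22 for Egr1 and −0.0715 to 0.36 for Egr3, both uncalled throughout; the log2 difference in the ratio of Egr1 to Egr3 ran from −0.40 to 0.13. Fits without a library compare 2 with 3 samples, and the fit without replicate 3 of both groups compares 2 with 2. Leaving out each library, 681 to 1093 genes were called higher and 499 to 883 lower, 7 to 18 immediate-early genes higher and 1 to 2 lower, 3 to 6 signalling genes lower, and 0 to 1 cofactors higher. Scaling by library size only gave 2 cofactors higher and 3 signalling genes lower. Immediate-early genes called lower numbered 2 with no filter, with the block and without replicate 3 of both groups, where 1 cofactor was lower. Among uncalled genes, Runx3 turned to −0.019 with upper quartile scaling, Acta2, the basal marker with the highest mean CPM, to −0.10 with the block, and Cd3g, Csn2 and Acta2 to 0.0137, −0.45 and −0.40 without replicate 3 of both groups. Leaving out each library gave −0.0406 to 0.0755 for Runx3, −0.00933 to 0.0619 for Nab1, −0.47 to 0.82 for Csn2 and −2.13 to 1.92 for Acta2. The cause of these changes was not tested.

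Same-numbered libraries of the groups deviated with correlations of −0.0393, 0.23 and 0.254 over 9417 genes. CD8 beta+ replicate 3 gave −0.244 with DN NK1.1+ replicate 2, and CD8 beta+ replicate 2 gave −0.279 with DN NK1.1+ replicate 3. Numbers 2 and 3 thus each correlated best with the same number of the other group. Each gene was centred on its group mean, so the deviations of the 3 libraries of a group sum to 0. The negative values are therefore not separate from the positive ones. CD8 beta+ replicate 1 correlated best with DN NK1.1+ replicate 2 (0.0792). Whether the numbers mark pairs cannot be told from these values. The main tests are unpaired, and the replicate block is given beside them. With the replicate block, 1137 genes were higher and 945 lower, and no member's call changed (Egr2 adjusted p = 0.0655). Counts of 32 to 105 limit Egr2, and 3 libraries a group limit every test.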
